A study of Rattus norvegicus with 6 samples.

Results

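Neuropeptide Y (Npy) and the peptides that sensory neurons are known to switch on with it after nerve injury were followed through 6 dorsal root ganglion libraries of rats. The 10 genes described come from a list of names, with 7 precursors of secreted peptides (Npy, the pro-neuropeptide Y-like feature LOC100912228, Gal, Vip, Cck, Adcyap1 and Vgf) and 3 receptors (Npy1r, Npy2r and Galr1). Each was found once, by its gene name, among the 23800 features of the deposited table. Of these 10, 8 were among the 13710 features that reached 1 FPKM (sequenced fragments per length of transcript and per size of library) in at least 3 libraries. Of the 8, 7 reached 1 FPKM in all 6 libraries and Galr1 in 5, so no tested member passed through 1 library. Vip and Cck reached 1 FPKM in 1 library each and were left out of the fitted comparison. The list was selected on the FPKM of this comparison, since Npy and Gal were already known to be high in BCP replicate 2. Levels of the members and their differences between the groups are therefore a description, and no test of them was made here.

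The animals were Sprague Dawley rats, with no other genotype, sex or age in the sources used here. All of them had MRMT-1 cells, a mammary carcinoma line of the rat, injected into the left tibia in 10 µL of medium. The cells were alive in the bone cancer pain group (BCP, 3 libraries, replicates 1, 2 and 3) and boiled in the sham group (sBCP, 3 libraries, replicates 1, 3 and 4), so both groups share the drilled bone and the injection. Ganglia of lumbar levels 3 to 5 on the injected side were taken after transcardial perfusion on day 17, and their polyadenylated RNA was sequenced.

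Neuropeptides are cut from larger precursors in secretory vesicles and released with the classical transmitters of a neuron. Intact sensory neurons of the rat make much calcitonin gene-related peptide and substance P but little neuropeptide Y, galanin or vasoactive intestinal peptide. Cutting or crushing the peripheral axon is known to raise these last peptides strongly in the cell bodies, together with the transcription factor Atf3. Neuropeptide Y and galanin mostly act on receptors that inhibit the cell that carries them, and Npy1r, Npy2r and Galr1 are of this kind.

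Summed FPKM of the libraries lay between 479167 and 495494. The FPKM values keep no absolute depth. From the lowest values BCP replicate 2 was the deepest library and BCP replicate 1 the shallowest, with a depth ratio of 1.31, and the other 4 lay at ratios of 1.11 to 1.23. In BCP replicate 2, 95 tested features lay more than 2 times above every other library (0.693% of 13710), against 3 to 16 features in each of the other 5 libraries. Markers of sensory neurons, which define the ganglion, were high in all 6 libraries, with the peripherin gene Prph at 1086 to 1347 FPKM. Skeletal muscle markers differed between the groups. All 9 markers analysed were called lower in BCP by limma (0.168% of all tested features), with summed levels of 13.7 to 22.7 FPKM in BCP and 546 to 973 in sBCP. In BCP replicate 2 this sum was 14.2 FPKM, within the range of the other BCP libraries. The sum of 5 adipocyte markers was also lower in BCP, at 0.574 to 1.84 against 2.58 to 8.17 FPKM. Most of it was Fabp4, the 1 tested, which limma did not call. Cidec went the other way, with a mean of 0.392 FPKM in BCP against 0.186 in sBCP, and the groups overlapped for Lep. The part of muscle and fat RNA in the results below was not tested.

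Npy itself was at 4.06, 224 and 4.71 FPKM in BCP replicates 1, 2 and 3 and at 5.92, 4.65 and 2.05 FPKM in sBCP replicates 1, 3 and 4. A single BCP library was therefore high, and the other 2 lay inside the range of the sham libraries. Npy was the 316th highest of the 23800 features in BCP replicate 2 and between the 8812th and the 11522nd in the other 5 libraries. Its level in BCP replicate 2 was 37.9 times the highest of the others, and 0 of the other tested features detected outside that library had a larger ratio. The group means were 77.7 ± 127 FPKM for BCP against 4.21 ± 1.97 FPKM for sBCP (SD, n = 3 each). On the log2(FPKM + 1) scale the BCP minus sBCP difference was 1.92 with a standard error of 1.38. Without BCP replicate 2 it was 0.13, from a BCP mean of 4.39 FPKM.

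LOC100912228, annotated in the table as a pro-neuropeptide Y-like gene, followed Npy in every library. It was at 4.89, 263 and 5.43 FPKM in BCP replicates 1, 2 and 3 and at 7.03, 5.66 and 2.22 in sBCP replicates 1, 3 and 4. In the table's coordinates, whose build is not given in the sources used here, Npy lies on the plus strand of chromosome 4 from 79557854 to 79565097. The copy lies on the same strand from 79573998 to 79581208, with 8900 bases between the genes and intervals of 7244 and 7211 bases. The ratio of Npy to the copy was 0.832, 0.853 and 0.867 in the BCP libraries and 0.842, 0.821 and 0.926 in the sham libraries. It thus stayed between 0.821 and 0.926 while the level of Npy itself ranged from 2.05 to 224 FPKM. How the authors assigned reads that match both features is not given in the sources used here, so the level of either is uncertain and they are not independent observations. Counts over the members below are given with both features and then with their sum as 1. Summed, they came to 487 FPKM in BCP replicate 2, against 4.27 to 13.0 FPKM elsewhere. If reads that match both features were counted for each, this sum overstates the level, so its place beside other genes is uncertain. In the same library Calca, the precursor of calcitonin gene-related peptide, was at 492 FPKM and Tac1, the substance P precursor, at 128 FPKM.

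**Figure D1:**
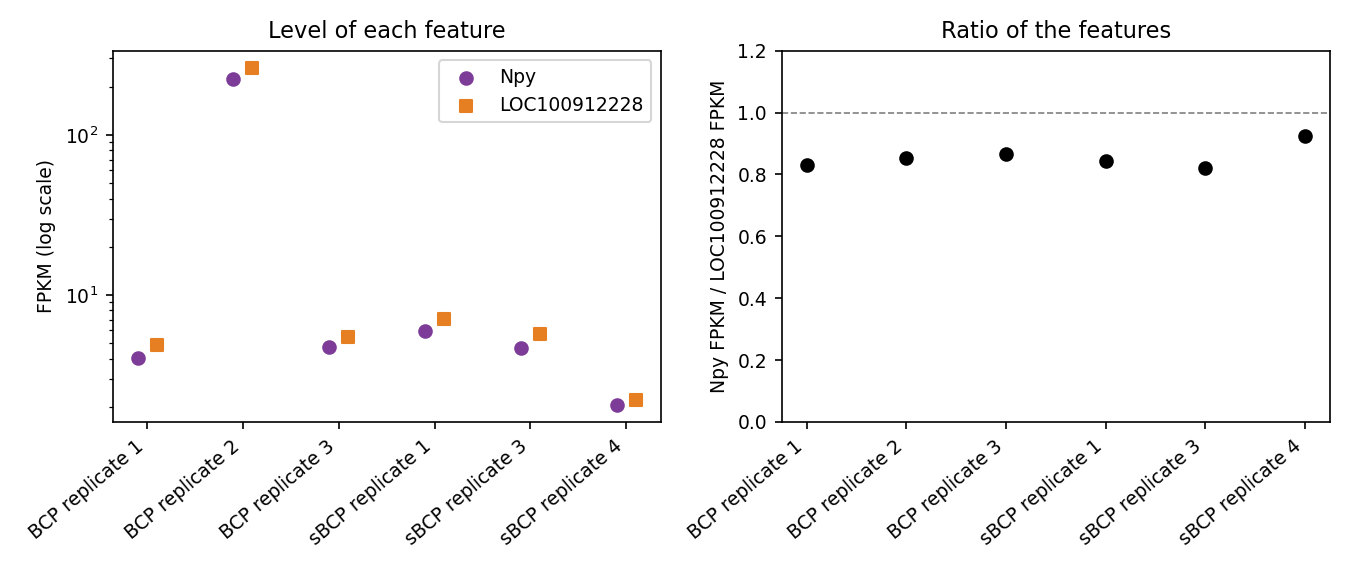
Left, FPKM on a log axis of Npy (circles) and LOC100912228 (squares) in each of the 6 libraries. Right, the ratio of Npy to LOC100912228 per library, which lies between 0.821 and 0.926, with the dashed line at equal levels; both features are high in BCP replicate 2 alone.

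Gal encodes the precursor of galanin. It was at 15.4, 46.3 and 9.84 FPKM in BCP replicates 1, 2 and 3 and at 13.3, 10.4 and 9.74 in sBCP replicates 1, 3 and 4. BCP replicate 2 was the highest, BCP replicate 1 was next, and BCP replicate 3 lay inside the sham range. The log2 difference was 0.76 with a standard error of 0.49, and 0.15 without BCP replicate 2. In the other 5 libraries Gal lay at 9.74 to 15.4 FPKM. Npy alone was below it there. The sum of Npy and its copy, which may overstate the level, overlapped Gal and in BCP replicate 3 was above it, at 10.1 FPKM. The level of Gal in BCP replicate 2 was 3.02 times the highest of them.

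Vip, the precursor of vasoactive intestinal peptide, was at 0.339, 6.53 and 0.285 FPKM in the BCP libraries, against 0.634, 0.519 and 0.227 in the sham libraries. It stood 10.3 times above the highest other library in BCP replicate 2, the next largest such ratio among the members after Npy and its copy. BCP replicates 1 and 3 lay within the sham range, and without BCP replicate 2 the log2 difference turned from 0.70 to -0.14. Adcyap1 encodes PACAP, a peptide of the same family as Vip. It was at 18.9, 32.5 and 19.1 FPKM across BCP, against 20.7, 18.5 and 17.8 in sBCP, again with BCP replicates 1 and 3 inside the sham range. Among the precursors it moved the least in BCP replicate 2, by 1.57 times the highest other library. Its other 5 libraries were also the closest together, the highest 1.17 times the lowest, where Npy spanned 2.89 times. The log2 difference of Adcyap1 was 0.25 with a standard error of 0.20, and -0.000791 without BCP replicate 2.

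Cck, the cholecystokinin precursor, was at 0.525, 2.81 and 0.389 FPKM in the BCP libraries, against 0.872, 0.706 and 0.481 in the sham libraries. BCP replicate 2 was 3.22 times the highest other library, while BCP replicate 3 was the lowest of the 6. Vgf, a precursor of several peptides that is induced by nerve growth factor, was at 24.7, 75.8 and 24.8 FPKM across BCP, against 26.9, 27.6 and 33.0 in sBCP. BCP replicate 2 was 2.30 times the highest other library, and BCP replicates 1 and 3 were below all 3 sham libraries. The log2 difference of Vgf was 0.30 with a standard error of 0.41 in all libraries and -0.22 without BCP replicate 2. That of Cck was 0.26 and -0.21.

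**Figure D2:**
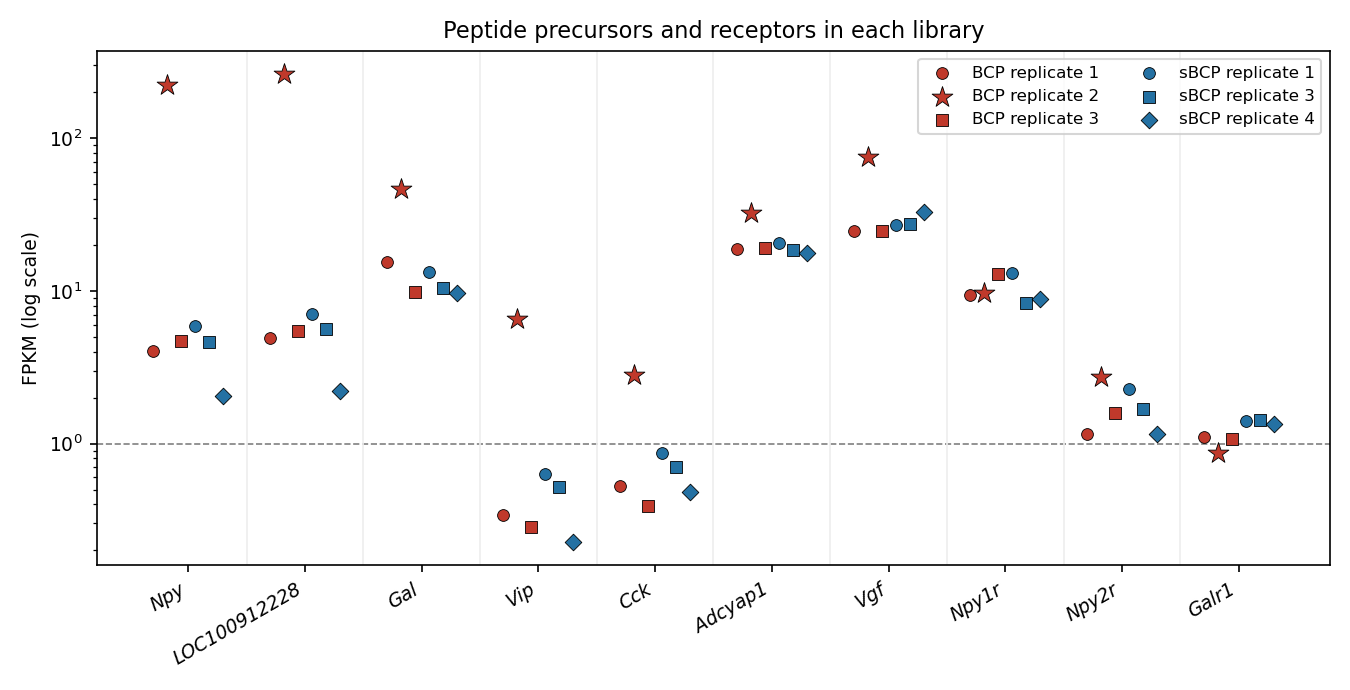
FPKM on a log axis of the 10 genes in each library, BCP in red and sBCP in blue, with one symbol per replicate number, a star for BCP replicate 2 and a dashed line at 1 FPKM. The star is the highest point for all 7 precursors and for Npy2r, inside the other points for Npy1r, and the lowest for Galr1.

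The promoters below are of 4 precursors that were more than 2 times every other library in BCP replicate 2, with Npy in front. Some of these promoters hold the core of a cAMP response element, the site that CREB-family factors bind. The promoter of Npy, which had the largest ratio there, lacks this core. That of Adcyap1, which was 1.57 times the highest other library there, also lacks it and is not shown. That of Npy1r, which was 0.742 times the highest other library there, holds the core and is not shown either. Promoters of 8 of the 10 members were matched by symbol in RefSeq (build GRCr8). Each line gives the 250 bases before the annotated start, 5′ to 3′ on the strand of the gene, with TGACG on either strand, or the whole of TGACGTCA, in capitals. The positions are chr4:80211861-80212110 (plus strand) for Npy, chr1:210084573-210084822 (minus strand) for Gal, chr1:44470230-44470479 (plus strand) for Vip and chr12:25277021-25277270 (minus strand) for Vgf.
Npy: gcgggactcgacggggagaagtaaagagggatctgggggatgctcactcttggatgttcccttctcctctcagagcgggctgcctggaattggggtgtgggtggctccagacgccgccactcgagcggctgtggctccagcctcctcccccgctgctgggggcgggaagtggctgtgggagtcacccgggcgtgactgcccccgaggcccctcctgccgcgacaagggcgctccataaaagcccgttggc
Gal: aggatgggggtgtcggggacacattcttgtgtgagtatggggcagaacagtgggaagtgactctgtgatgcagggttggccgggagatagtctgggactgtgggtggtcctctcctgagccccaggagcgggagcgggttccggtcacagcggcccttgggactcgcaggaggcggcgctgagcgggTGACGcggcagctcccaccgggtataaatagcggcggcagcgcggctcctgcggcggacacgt
Vip: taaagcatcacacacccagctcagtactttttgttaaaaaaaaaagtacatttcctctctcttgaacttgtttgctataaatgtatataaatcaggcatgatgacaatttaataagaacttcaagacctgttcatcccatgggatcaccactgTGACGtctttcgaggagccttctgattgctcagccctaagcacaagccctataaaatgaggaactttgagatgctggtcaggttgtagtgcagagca
Vgf: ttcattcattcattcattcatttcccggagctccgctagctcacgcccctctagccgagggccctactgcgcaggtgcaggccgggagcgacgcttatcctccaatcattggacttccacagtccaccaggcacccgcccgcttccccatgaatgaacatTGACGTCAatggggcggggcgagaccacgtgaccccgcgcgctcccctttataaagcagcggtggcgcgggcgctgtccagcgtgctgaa

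Vgf held the full palindrome TGACGTCA, 90 to 83 bases before the start, a sequence found in 1.59% of the 33469 promoters of that table. Gal held TGACG at 63 to 59 bases and Vip at 97 to 93 bases before the start, and Npy1r held it on the opposite strand at 138 to 134 bases. With Vgf, whose palindrome contains it, 4 of the 8 member promoters held TGACG on either strand, against 18.2% of all promoters. This shorter motif was searched after the sequences were seen. The AP-1 motif TGANTCA, which 6.34% of promoters held on either strand, was found in Npy2r, at 148 to 142 bases before the start. The STAT-type motif TTCNNNGAA, held by 7.67% of promoters, was found in 0 of the 8. The windows of Npy, shown without capitals, Adcyap1 and Galr1 held none of these 4 motifs. These matches describe the letters of a window and were not tested as sites.

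None of the 3 receptors reached 2 times every other library in BCP replicate 2. Npy1r, a receptor of neuropeptide Y on small sensory neurons, was at 9.37, 9.67 and 13.0 FPKM across BCP, against 13.0, 8.33 and 8.91 in sBCP, with the groups interleaved. Its log2 difference was 0.08 with a standard error of 0.19. Npy2r, the receptor that neuropeptide Y uses on many nerve terminals, was at 1.16, 2.71 and 1.60 FPKM across BCP, against 2.29, 1.69 and 1.16 in sBCP. BCP replicate 2 was 1.18 times the highest other library, and the difference was 0.04 with a standard error of 0.25. Of the other Npy receptors, Npy5r stayed between 0.310 and 0.923 FPKM and Npy4r at no more than 0.0586 FPKM.

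Galr1, a galanin receptor, was the one member whose groups did not overlap. It was at 1.10, 0.874 and 1.07 FPKM across BCP, against 1.41, 1.42 and 1.34 in sBCP, which gave means of 1.02 ± 0.124 and 1.39 ± 0.0398 FPKM (SD, n = 3 each). All 3 BCP libraries were below all 3 sham libraries, with BCP replicate 2 the lowest, so Galr1 was at its lowest where Gal was at its highest. The log2 difference was -0.25 with a standard error of 0.13, and -0.20 without BCP replicate 2. Such an order, with BCP below sBCP, was seen in 3.06% of all tested features. The levels lie near 1 FPKM, where few fragments stand behind each value and the log2(FPKM + 1) scale understates a change. With a pseudocount of 0.1 the difference was -0.42.

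Over all 10 members, 9 had a BCP minus sBCP difference above 0, and without BCP replicate 2 the number was 4. Of the 8 tested members 7 were above 0, against 45.5% of all tested features. For the 8 tested members the median difference was 0.28, beside -0.01 over all 13710 tested features, and 0.06 without BCP replicate 2. With Npy and its copy summed, 8 of 9 were above 0, and 3 without BCP replicate 2, with medians over the 7 tested of 0.25 and -0.000791. The contrast had served to choose the members, so nothing is read from these counts. Of the members, 4 (Npy and its copy among them) are marked as significantly higher in BCP in the authors' deposited table, which marks 49 of 23800 features in that direction (0.206%). The authors' deposited table gives Npy a fold change of 18.5 with p = 0.000138 and q = 0.0296, and LOC100912228 a fold change of 18.3 with p = 0.000148 and q = 0.0311. In the authors' deposited table Gal has a fold change of 2.14 with p = 0.0135 and q = 1, and Vip one of 5.19 with p = 0.0122 and q = 1. The ratios of means without BCP replicate 2, computed here, were 1.04 for Npy, 1.04 for LOC100912228, 1.13 for Gal and 0.678 for Vip.

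**Figure D3:**
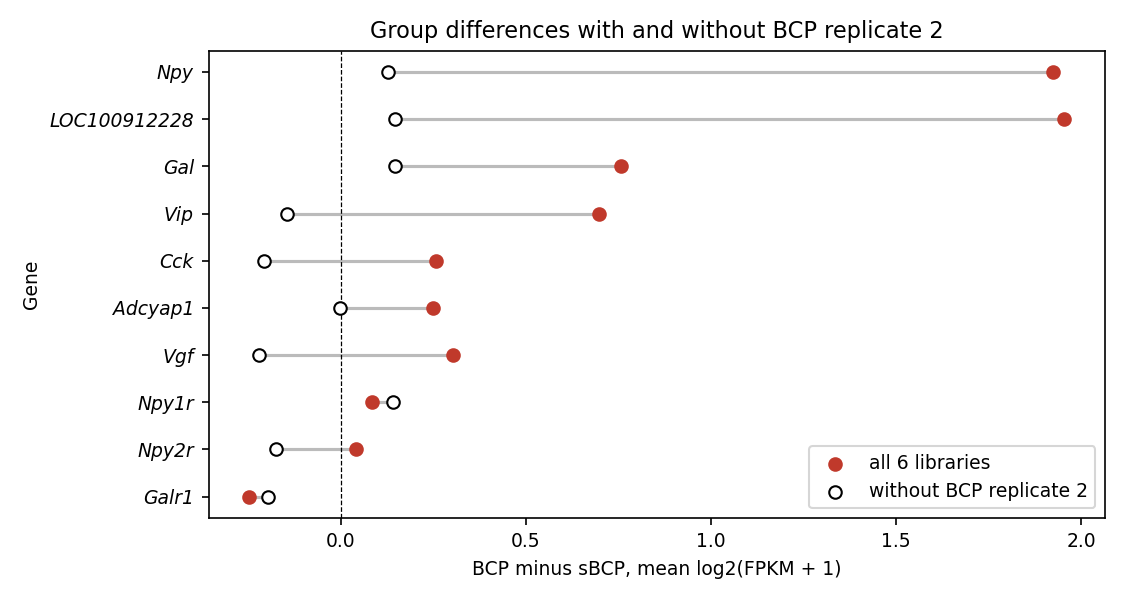
BCP minus sBCP difference of mean log2(FPKM + 1) for each of the 10 genes, in all 6 libraries (filled) and without BCP replicate 2 (open), joined by a line. Npy moves from 1.92 to 0.13 and Gal from 0.76 to 0.15, while Vip, Cck, Adcyap1, Vgf and Npy2r pass from above to below 0.

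The pattern of BCP replicate 2 was set against all features. That library was the highest of the 6 for 6 of the 8 tested members, against 21.0% of all tested features. For 4 of the 8 (Npy, LOC100912228, Gal and Vgf) it was more than 2 times every other library, against 0.693% of tested features. With Npy and its copy summed these counts were 5 and 3 of 7. Ranked by the ratio of BCP replicate 2 to the highest other library, Npy and its copy came first, 19 tested features had a larger ratio than Gal, 56 than Vgf and 202 than Adcyap1. The features that followed the copy with a gene symbol, named after their values were seen, were Stac2, an adaptor of voltage-gated calcium channels, at 10.2 times, the chemokine Cxcl13 at 5.63 times and Atf3 at 5.39 times. BCP replicate 2 was included because these data had already shown it to stand apart, so its ratios are a description.

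**Figure D4:**
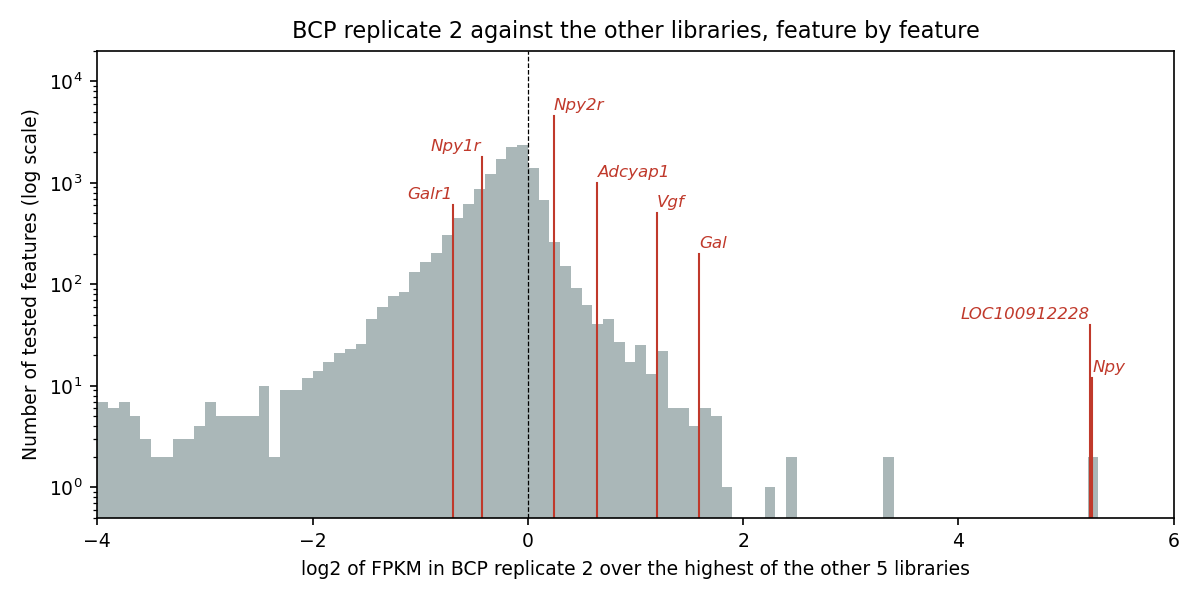
Number of tested features (log axis) by the log2 ratio of FPKM in BCP replicate 2 to the highest of the other 5 libraries, for 13638 features, with 45 features below the axis and 27 at 0 FPKM in BCP replicate 2 or in all the others not drawn. Red lines mark the 8 tested members, with Npy and LOC100912228 at the far right and Npy1r and Galr1 left of 0, the dashed line of equal levels.

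The other 5 libraries also differed among themselves. The sham library sBCP replicate 4 was the lowest of the 6 for 6 members, among them Npy, Gal, Vip and Adcyap1. In sBCP replicate 1 the level was the highest of these 5 for 7 members, among them Npy, Vip, Cck, Adcyap1 and both Npy receptors. With Npy and its copy summed these counts were 5 and 6 of 9. Their shares over all features were not computed, and sBCP replicate 1 was the highest of all 6 libraries for 28.5% of tested features. Nothing is therefore read from these counts. Over the 5, the highest level of Npy was 2.89 times the lowest, that of Vip 2.79 times, that of Cck 2.24 times and that of Gal 1.58 times. For each of the 7 precursors this span was smaller than the ratio of BCP replicate 2 to the highest of the 5. For the receptors it was larger. The 5 spanned 1.98 times for Npy2r, where BCP replicate 2 was 1.18 times the highest, and 1.56 times for Npy1r, with BCP replicate 2 inside their range.

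Markers of other states and cell types were read beside the peptides. A list of injured sensory neurons held 12 genes, 9 of them tested. Each of the 9 was highest in BCP replicate 2, against 21.0% of all tested features. The other genes, Sprr1a, Ecel1 and Cckbr, were also highest there and reached 1 FPKM in that library alone. The list was chosen with earlier results of these data known, so nothing is read from this count. The summed level of the 12 genes in BCP replicate 2 was 581 FPKM against 276 to 319 in the others. Most of the sum was Gap43, a protein of growth cones, at 350 FPKM against 190 to 230. Sprr1a, a protein of growing injured axons, reached 7.80 FPKM in BCP replicate 2 against 0.0908 to 0.494 elsewhere. Macrophage markers were highest in the same library for 9 of 10 genes, with a sum of 477 FPKM against 70.1 to 198. Markers of spinal cord and meninges were highest there for 4 of 7 genes, at 934 against 307 to 817 FPKM, most of it Ptgds, while Olig2 was listed at 0 in every library. The part of the macrophage and meningeal RNA in the peptide levels was not tested.

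Sympathetic neurons, which are known to make neuropeptide Y, had 7 of 9 markers analysed here. Their summed level in BCP replicate 2 was 38.8 FPKM, inside the 29.9 to 52.0 FPKM of the other libraries, and most of it was Chrna3, a nicotinic receptor subunit that sensory neurons also express. Of their defining markers Dbh, the enzyme that makes noradrenaline, was listed at 0 in BCP replicate 2, and the noradrenaline transporter Slc6a2 was at 0.348 FPKM there and at 0.0748 to 0.465 elsewhere. Th, the enzyme at the start of that pathway, was at 0.788 FPKM against 0.694 to 3.31. The other low markers were highest in BCP replicate 2, with the transcription factor Gata3 at 0.316 FPKM against 0 to 0.287 and Ddc, the enzyme that makes dopamine, at 0.158 against 0.0552 to 0.149. The part of sympathetic neurons in the level of Npy was not tested. Summed markers of sensory neurons (7426 FPKM against 6266 to 8130) and of satellite glia (2948 against 2693 to 2993) in BCP replicate 2 were also inside the range of the others. Most of the satellite glia sum was Apoe, at 2756 FPKM in BCP replicate 2, so it says little of the rest. Of the 6 satellite glia genes, 0 were highest and 1, Glul, was lowest in BCP replicate 2. Schwann cell markers were at 6542 FPKM there and at 7918 to 10335 in the others, with 5 of 6 at their lowest in that library. Megakaryocyte markers summed to 9.17 against 5.53 to 7.53 FPKM, and lymphocyte markers to 2.63 against 0.789 to 1.92. In whole ganglia more cells making a peptide and more RNA per cell cannot be told apart.

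Other genes of the peptide system were tested in the same fit, to see whether the machinery around these peptides differed between the groups. Of 53 such genes in the table, 38 were tested, and limma called 0 of them in either direction at an adjusted p under 0.05, with 1 at an unadjusted p under 0.05. Over all tested features 25 were called, or 0.182%, and 1.98% had an unadjusted p under 0.05. Their differences were above 0 for 19 and below 0 for 19, and the median was 0.0017 beside -0.01 over all tested features. A gene that was not called is not shown to be unchanged, and the intervals below give the sizes these data allow.

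Receptors of the other peptides were low. Of 3 tested, 2 were above 0 and 1 below, with a median difference of 0.01 and adjusted p of 1.00 for each (limma). Vipr2, which binds both Vip and PACAP, was at 2.11 ± 0.167 FPKM for BCP against 2.09 ± 0.264 FPKM for sBCP (SD, n = 3 each), and the 95% interval of its log2 difference ran from -0.29 to 0.32. Adcyap1r1, the PACAP receptor, was at 1.83 ± 0.301 against 1.84 ± 0.264 FPKM. Cckar, a cholecystokinin receptor, was at 3.06 ± 0.762 against 2.59 ± 0.116 FPKM, with an interval from -0.22 to 0.54. Cckbr, the other cholecystokinin receptor, was below the filter, with 2.11 FPKM in BCP replicate 2, against 0.312 to 0.514 elsewhere. Cckbr is also in the list of injured sensory neurons and was named after its values were seen.

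Genes that process and store peptides ranged from the level of these receptors to far above it. The lowest tested was Qpct, which closes the first residue of some peptides into a ring, at 2.04 ± 0.196 FPKM for BCP against 2.03 ± 0.267 FPKM for sBCP. Of 12 tested, 6 were above 0 and 6 below, with a median of -0.0006, and the largest difference in size was 0.16. Scg3, a granin that sorts cargo into secretory granules, was at 225 ± 9.38 FPKM for BCP against 231 ± 28.9 FPKM for sBCP. Cpe, the carboxypeptidase that trims peptide precursors, was at 188 ± 7.42 against 189 ± 11.0 FPKM, with an interval from -0.18 to 0.16. Chgb, another granin, was at 142 ± 7.49 against 128 ± 11.5 FPKM, with an interval from -0.04 to 0.36. Pam, the enzyme that amidates the end of neuropeptide Y and many other peptides, was at 40.6 ± 1.03 against 43.6 ± 2.57 FPKM (interval from -0.26 to 0.06). None of the 12 was highest in BCP replicate 2 (0 genes).

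Calca, Tac1 and Sst, constitutive peptide precursors of sensory neurons, were inside the range of the other libraries in BCP replicate 2. Of 16 other precursors, 11 were tested, 4 above 0 and 7 below, with a median of -0.01, and 1 of them, the neurotrophin Bdnf, was highest in BCP replicate 2. Calca was at 510, 492 and 537 FPKM across BCP, against 456, 493 and 564 in sBCP. Tac1 was at 123, 128 and 147 against 141, 152 and 147 FPKM, and Sst, the somatostatin precursor, at 116, 134 and 143 against 120, 118 and 160 FPKM. In each of these 3 genes the groups overlapped. Npw, the precursor of neuropeptide W, was at 3.08, 2.87 and 2.91 FPKM across BCP, against 1.84, 1.31 and 1.61 in sBCP, with all BCP libraries higher and a log2 difference of 0.62 (standard error 0.13, limma adjusted p = 0.612). Penk, the enkephalin precursor, was at 1.90, 2.12 and 4.00 FPKM against 1.53, 1.53 and 1.82, also with all BCP libraries higher (adjusted p = 1.00, limma), and was named after its values were seen. An order of this kind, with BCP above sBCP, was seen in 2.34% of tested features. Crh, the precursor of corticotropin-releasing hormone, was at 5.25 ± 3.25 against 7.20 ± 1.96 FPKM, with a wide interval from -1.34 to 0.37.

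A list of 14 genes was built around factors that bind the cAMP response, AP-1 and STAT motifs. It also holds Sox11, a factor that binds other sites, and Socs3, an inhibitor of cytokine signalling that binds no DNA. Atf3, Jun and Sox11 are also in the list of injured sensory neurons, so these lists are not independent observations. Of the 14 genes, 12 were tested, 7 above 0 and 5 below, with a median of 0.08. BCP replicate 2 was the highest library for 8 of them, against 21.0% of all tested features, and for Stat3, Jund and Fosl1, 3 of the 8, at no more than 1.01 times the highest other library. It was more than 2 times every other library for 3, against 0.693% of tested features, and of these Atf3 is the one that binds such a motif, with Sox11 and Socs3 as the others. Atf3 was at 7.57, 40.8 and 3.72 FPKM across BCP, against 7.19, 6.21 and 3.77 in sBCP (log2 difference 0.86, standard error 0.73, limma adjusted p = 1.00). Sox11, a factor of axon regrowth, was at 1.05, 3.23 and 1.57 against 1.35, 1.01 and 0.776 FPKM. Jun, the main partner in AP-1, was at 37.8, 67.7 and 28.9 against 36.2, 34.1 and 37.1 FPKM. The more abundant Stat3 and Jund were nearly level between the groups, at 63.9 ± 3.29 against 64.0 ± 3.21 FPKM for Stat3, with an interval from -0.17 to 0.16, and at 49.7 ± 3.20 against 46.9 ± 4.97 FPKM for Jund.

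**Figure D5:**
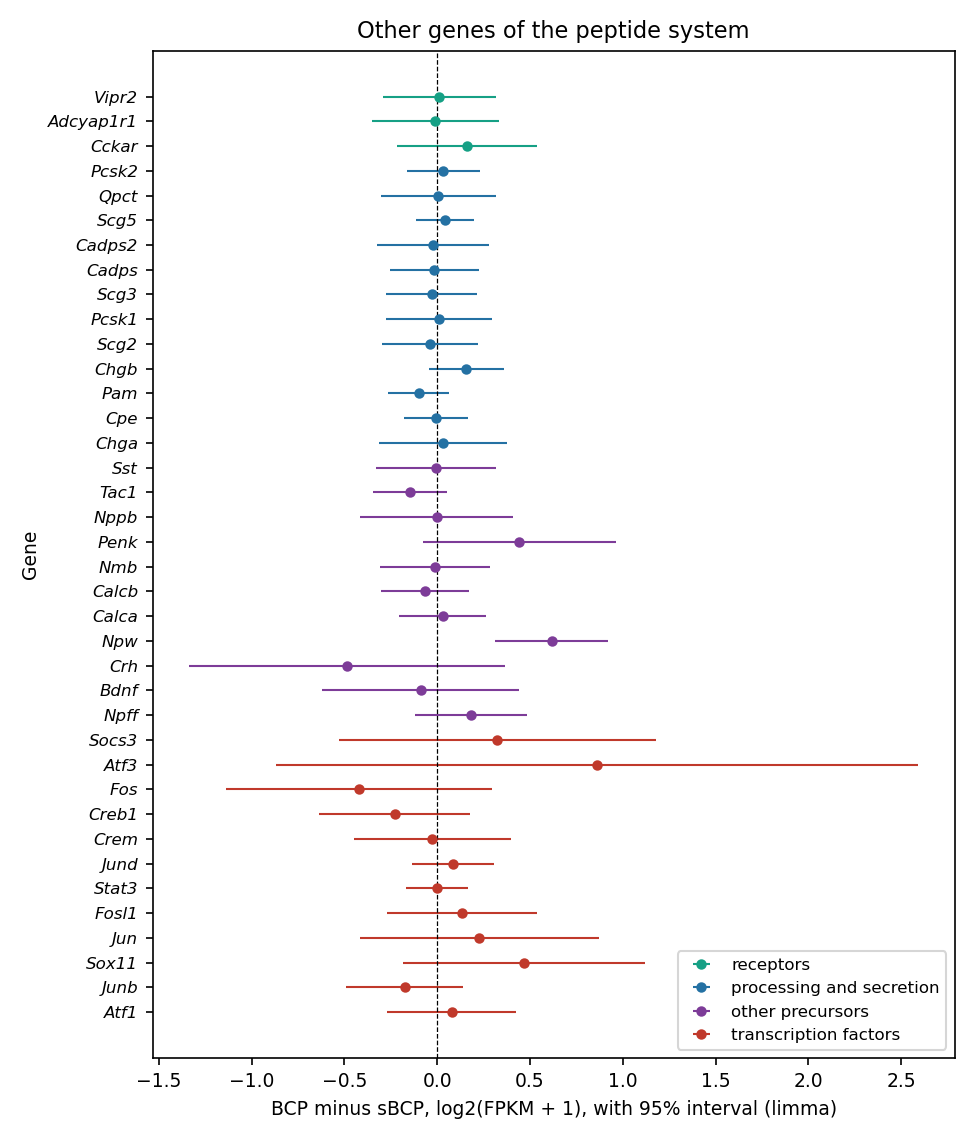
BCP minus sBCP difference on the log2(FPKM + 1) scale with its 95% interval (limma, n = 3 against 3) for the 38 tested genes around the peptides, coloured by list. The interval is widest for Atf3, from -0.87 to 2.59, and wide for Crh and Socs3, and Npw is the 1 gene whose interval does not reach 0.

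Likeness to Npy was measured by Pearson's r of log2(FPKM + 1) over the 6 libraries, which rests on BCP replicate 2 and says nothing of the size of a change. Within the members r was 0.994 for Vip, 0.993 for Adcyap1, 0.970 for Cck, 0.960 for Gal, 0.923 for Vgf, 0.788 for Npy2r, -0.04 for Npy1r and -0.74 for Galr1. Over the 5 other libraries alone it was 0.844 for Adcyap1, 0.796 for Npy2r, 0.773 for Vip, 0.574 for Npy1r, 0.536 for Cck, 0.391 for Gal, -0.02 for Galr1 and -0.77 for Vgf. The points behind each r share their normalisation, and depth was not separated. Among 10837 other tested genes with a symbol and a mean of at least 2 FPKM, the most like Npy was Sh3bp2, a signalling adaptor protein, with r = 0.999 over 6 libraries and 0.980 over 5. Its level was 3.81 FPKM in BCP replicate 2, against 1.80 to 2.13 FPKM elsewhere. The next 7 were the ribosomal protein genes Rpl11, Rpl27 and Rpl10a, the cholesterol transport gene Stard3, Lcp1, an actin-bundling protein of leukocytes, Tor2a and Trim34, with r from 0.979 to 0.992. Of these 8, Trim34 was raised the most in BCP replicate 2, at 1.86 times the highest other library, and Stard3 the least, at 1.07 times. An r over 0.9 was reached by 201 of the 10837 genes.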

How the data were processed

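Polyadenylated RNA of 6 ganglion samples (3 BCP, 3 sBCP, grouped by their titles) was sequenced in pairs, per the labels' protocols; the labels do not say that each came from a separate animal, so p-values measure the spread between samples. The aligner, counting tool, annotation and build are not given in the sources used here. FPKM values were deposited by the authors per feature, with no counts, so no interval from counts is given and the precision rests on the 3 libraries of a group. Beside these, per the file headers, stand a fold change by the authors (a ratio of group means), its log2 as deposited, and p-values and q-values deposited by the authors from a test not named there. Relative depth was read from the most frequent ratio of features with 1 transcript under 0.5 FPKM (steps of 0.01 on the log2 scale).

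Features that reached 1 FPKM in 3 or more libraries were tested on log2(FPKM + 1), a pseudocount of 1, with limma 3.58.1 in R 4.3.3 (empirical Bayes with a trend, no covariate, Benjamini-Hochberg adjustment over all features at 0.05). Fold changes on this scale understate changes of low genes. The members and lists were chosen with earlier results of these data known. Named genes were all members, the genes called in each list or else its 3 highest by mean FPKM and 2 largest by difference, the 8 most like Npy, and defining members of the marker lists. Stac2, Cxcl13, Cckbr, Penk, Bdnf, Socs3, Qpct, Fosl1, Npy5r, Npy4r, Sprr1a, Gap43, Ptgds, Chrna3, Gata3 and Ddc were named after their values were seen. The same holds for Mog, Gfap, Igfbp2, Slc6a13, Aqp4, Ecel1, Lyz2, Mrc1, Cd163, Apoe, Glul, Fabp4, Cidec and Lep. Promoters are RefSeq's (GRCr8). The listed genes Galr2, Npy6r, Ppy, Spx, Vipr1, Pcsk1n, Hand2, Cd79a, Trbc2, Myh2 and Myh4 were among those not analysed here. As alternatives, pseudocounts, filters, scalings and library weights were varied, replicate numbers were fitted as a block, and replicates were left out in turn. Plots were made with matplotlib 3.10.9.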

Additional observations from a re-analysis of the deposited data

How the results depend on the processing

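The count of features called by limma was 25, and 39 with array weights, 38 with the replicate block and 14 to 31 when each replicate was left out (16 without BCP replicate 1, 14 without BCP replicate 3, 15 without sBCP replicate 3). It lay between 20 and 31 under the other pseudocounts, filters and scalings. In each of these fits 0 of the other peptide system genes were called. The number of members with a difference above 0 was 9 of 10, and 4 to 9 when each replicate was left out, the 4 without BCP replicate 2. It was 5 of 5 with the filter at 5 FPKM, which tests fewer members, and 2 of 8 with the replicate block. With Npy and its copy summed, an alternative chosen after seeing the data, it was 8 of 9. Replicate numbers 1 and 3 occur in both groups. The correlation of their deviations from the group means was 0.0643 and -0.104, so the numbers are not taken to pair the samples. With the block, the difference rests on these numbers alone and leaves both BCP replicate 2 and sBCP replicate 4 without weight. It was -0.22 for Npy, -0.05 for Adcyap1 and -0.13 for Vgf. Of 129 member differences under an alternative, 14 changed sign, in 8 genes, 5 of them without BCP replicate 2 and 5 with the block. BCP replicate 2 sets the SD of the precursors in its group, so a move within 1 SD is no sign of stability for them: Npy went from 1.92 to 0.13 without that library. A move beyond 1 SD was seen for Npy2r with the block (-0.33) and for Galr1 with pseudocounts of 0.1 (-0.42) and 0.01 (-0.45), pseudocounts that understate low values less. Npy1r fell below 0 without BCP replicate 3 (-0.05) or sBCP replicate 3 (-0.03), and Npy2r -0.02 with array weights and -0.11 without sBCP replicate 4. With no counts, depth sets no interval for the members near 1 FPKM.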
